A study of Mus musculus with 20 samples.

Results

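Neutrophils are made from precursors that fill their granules in a fixed order, and 10 genes of that programme were followed here in the fetal mouse liver, which is a blood-forming organ before birth. They were taken by name from the transcript counts of each fetus, summed to genes. The 10 genes are 10 of 26830 genes with a count and of 17573 genes tested, and all 10 passed the filter on low counts. By role they are 4 genes of primary granule proteins (Mpo, Elane, Prtn3 and Ctsg), the transcription factor gene Gfi1, 3 genes of secondary granule proteins (Ngp, Camp and Ltf) and the 2 genes S100a8 and S100a9, whose products bind calcium in the cytosol.

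Primary granules form first, at the promyelocyte stage, and carry myeloperoxidase and serine proteases. Secondary granules form later, at the myelocyte and metamyelocyte stages, and carry lactoferrin and the cathelicidin peptide, while S100a8 and S100a9 transcripts become abundant as the cells mature. C/EBP factors, PU.1 and GFI1 direct these steps, and in late gestation the liver still holds many such precursors beside erythroid cells and hepatocytes.

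The tissue was the right lobe of the liver, taken at embryonic day 18.5 from male fetuses. All were of the outbred CD-1 IGS strain. The control group came from control dams and the other group from dams under maternal nutrient restriction (MNR); no further detail of the diets was used here. Each group held 10 fetuses, 2 littermates from each of 5 litters, and no genetic alteration is named in the labels for either group. Polyadenylated RNA was sequenced to 14925778 to 28016953 transcript counts per fetus, with a median of 19658940. Dams, not fetuses, received the diet, so counts of littermates were summed and the litter is the replicate (n = 5 per group). Litters are named by the letters A to E within each group, and a control and an MNR litter of the same letter had different dams.

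Levels are CPM, which is the count of a gene relative to the size of the library, with sizes scaled by the TMM method. A difference between the groups is a log2 fold change, MNR over control, followed by its standard error (SE). Genes were tested with edgeR (quasi-likelihood, two-sided). P-values were adjusted by the Benjamini-Hochberg method over all 17573 genes, and a gene passed at an adjusted p of at most 0.05. RNA of the whole lobe was measured, so a different number of precursor cells and a different amount of RNA per cell cannot be told apart. The liver and its blood-forming cells were both visible in the RNA: hepatocyte markers summed to between 179300 and 222100 CPM per litter and erythroid markers to between 2613 and 4147 CPM.

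All 10 genes had a higher mean level in MNR than in control litters, by 0.13 to 0.44 on the log2 scale, and none of the 10 passed the threshold. Over all genes tested, 0.666% passed it (117 genes), and 0.415% passed it with a higher level in MNR (73 genes). The median log2 fold change of the 10 genes was 0.26, against -0.0027 over all genes tested. An unadjusted p under 0.05 in edgeR's test, with a higher level in MNR, was reached by 7 of the 10 genes and by 9.95% of all genes tested. A positive log2 fold change alone was found for 49.4% of all genes. The levels of the 5 MNR litters lay wholly above those of the 5 control litters for 2 of the 10 genes, Mpo and Ctsg, and for 2.28% of all genes tested. The 10 genes were chosen with earlier results of these data known and varied together between litters. The counts of genes are therefore not separate results and not a test of the set. The primary and the secondary granule genes had nearly the same median log2 fold change, 0.28 and 0.27.

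**Figure D1:**
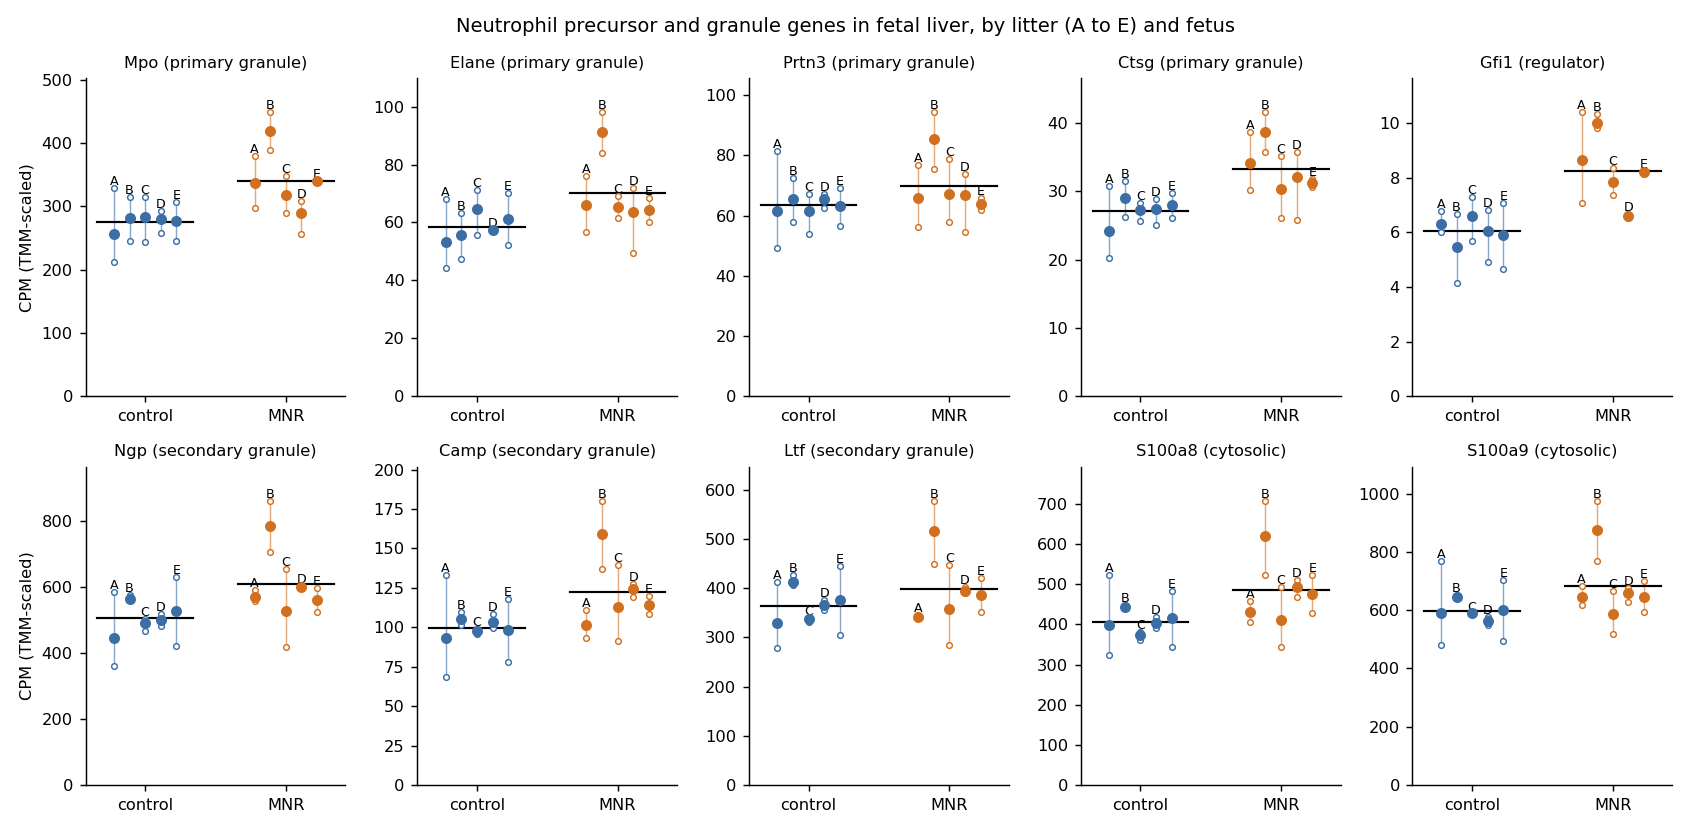
Levels of the 10 genes in CPM on linear axes from 0, in 1 panel per gene. Filled points are litters (A to E, 5 per group), open points their 2 fetuses joined by a line, and black bars the group means over litters; the litters of Mpo and Ctsg do not overlap between the groups, and MNR litter B is the highest litter in all 10 panels.

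The primary granule genes came first in the order of development. Their starts are shown here because the genes of this class are known targets of the same few factors. The 250 bases before the annotated start of transcription are printed 5′ to 3′ on the strand of the gene, from RefSeq on the build GRCm38.p6; all 10 genes were found in the RefSeq table, Gfi1 with 2 starts. Capitals mark GAGGAA, a core of PU.1 sites, where it lies on the printed strand; both strands were searched. The Mpo window is chr11:87793534-87793783 (+), that of Elane chr10:79886062-79886311 (+), that of Prtn3 chr10:79879417-79879666 (+) and that of Ctsg chr14:56102575-56102824 (-).
Mpo: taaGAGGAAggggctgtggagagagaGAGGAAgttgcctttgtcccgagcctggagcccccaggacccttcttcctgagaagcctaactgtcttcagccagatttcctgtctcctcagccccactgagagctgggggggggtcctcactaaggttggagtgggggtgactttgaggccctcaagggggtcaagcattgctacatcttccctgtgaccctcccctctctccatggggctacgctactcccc
Elane: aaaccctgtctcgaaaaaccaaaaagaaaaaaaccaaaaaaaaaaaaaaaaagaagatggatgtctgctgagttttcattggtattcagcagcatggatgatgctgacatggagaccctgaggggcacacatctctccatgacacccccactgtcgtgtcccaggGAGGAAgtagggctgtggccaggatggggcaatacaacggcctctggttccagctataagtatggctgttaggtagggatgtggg
Prtn3: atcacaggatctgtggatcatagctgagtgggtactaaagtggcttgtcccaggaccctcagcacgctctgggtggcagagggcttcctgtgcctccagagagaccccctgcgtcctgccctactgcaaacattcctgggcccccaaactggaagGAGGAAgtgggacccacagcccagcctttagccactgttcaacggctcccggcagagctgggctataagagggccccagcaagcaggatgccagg
Ctsg: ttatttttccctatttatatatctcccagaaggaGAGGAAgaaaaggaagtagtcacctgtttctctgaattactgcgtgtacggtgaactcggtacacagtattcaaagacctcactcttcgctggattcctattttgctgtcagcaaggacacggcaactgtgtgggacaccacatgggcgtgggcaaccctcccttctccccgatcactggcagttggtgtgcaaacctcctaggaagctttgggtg
All 4 windows held GAGGAA, and the Mpo window held it at 2 places. The letters were not limited to this class: the Ltf and S100a8 windows held them too, so 6 of the 11 windows of the 10 genes did. Of 32851 mouse promoter windows of the same length in the table, 23.3% held it. In Elane the match began 85 bases before the start and in Prtn3 95 bases before it. The MYB letters TAACNG were found in the Mpo and Elane windows and in 19.8% of all windows, and the RUNX letters TGTGGT in the Ctsg and S100a9 windows and in 14.0% of all windows. These are matches of letters, and binding was not measured.

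Mpo encodes myeloperoxidase, which makes hypochlorous acid from hydrogen peroxide (mm9 chr11:87607083-87617915, + strand). Control litters A to E had 257, 282, 284, 279 and 278 CPM, and MNR litters A to E had 337, 420, 318, 289 and 341 CPM. The groups did not overlap, although MNR litter D was only slightly above the highest control litter. The means were 276 ± 11.1 CPM (SD, n = 5) in control and 341 ± 48.6 CPM in MNR, a log2 fold change of 0.30 (SE 0.090, adjusted p = 0.103 in edgeR). Mpo was thus separated between the groups without passing the threshold over all genes. Exons of Mpo overlap those of Gm11505 on the other strand over 512 bases, but that gene held only 17 counts in all fetuses together.

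Ctsg encodes cathepsin G, a serine protease of the same granule (mm9 chr14:56718718-56721411, - strand). It stood at 24.2, 29.0, 27.3, 27.4 and 28.0 CPM in control litters A to E and at 34.2, 38.8, 30.3, 32.1 and 31.2 CPM in MNR litters A to E. The groups did not overlap. The means of 27.2 ± 1.80 and 33.3 ± 3.38 CPM (SD, n = 5) differed by a log2 fold change of 0.29 (SE 0.074, adjusted p = 0.0740 in edgeR).

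Elane encodes neutrophil elastase and lies beside Prtn3 on chromosome 10 (mm9 chr10:79349057-79350961, + strand). Its control litters A to E had 53.4, 55.7, 64.5, 57.5 and 61.3 CPM and its MNR litters 66.0, 91.1, 65.3, 63.6 and 64.3 CPM. MNR litter B stood far above the rest, and the MNR litters D and E lay within the control range. The means were 58.5 ± 4.46 and 70.1 ± 11.8 CPM (SD, n = 5), a log2 fold change of 0.26 (SE 0.10, adjusted p = 0.185 in edgeR). Prtn3 encodes proteinase 3 (mm9 chr10:79337221-79345919, + strand). It had 61.6, 65.4, 61.6, 65.5 and 63.2 CPM in control litters A to E and 66.0, 85.4, 67.3, 66.7 and 64.0 CPM in MNR litters A to E. Control litters differed little, and 4 of 5 MNR litters lay above all of them, but MNR litter B alone was far from the control range. The log2 fold change was 0.14 (SE 0.076, adjusted p = 0.340 in edgeR), and without MNR litter B it was 0.057. Prtn3 shares 159 bases of exon with BC005764 on the other strand, which held 1718 counts over all fetuses, and whether the deposited counting used strand is not known here.

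Gfi1 encodes a zinc finger repressor that granulocyte precursors need in order to mature (mm9 chr5:108145674-108155056, - strand), and it was by far the least abundant of the 10, with 70 to 205 counts per fetus. Control litters A to E had 6.29, 5.48, 6.61, 6.04 and 5.89 CPM and MNR litters A to E had 8.66, 10.0, 7.85, 6.61 and 8.19 CPM. The groups met at a single point: MNR litter D and control litter C were equal to 3 digits, and the other 4 MNR litters lay above all control litters. The means of 6.06 ± 0.425 and 8.26 ± 1.24 CPM (SD, n = 5) gave the largest log2 fold change of the 10 genes, 0.44 (SE 0.104, adjusted p = 0.0643 in edgeR). A stretch of 101 exon bases is shared with A430072P03Rik on the other strand, which held 78 counts in all fetuses together.

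Among the secondary granule genes, Ngp and Ltf are shown with their starts because their windows hold repeated matches of the C/EBP letters TTNNGNAA, which capitals mark (either strand, RefSeq, GRCm38.p6). The Ngp window is chr9:110419558-110419807 (+) and the Ltf window chr9:111019042-111019291 (+).
Ngp: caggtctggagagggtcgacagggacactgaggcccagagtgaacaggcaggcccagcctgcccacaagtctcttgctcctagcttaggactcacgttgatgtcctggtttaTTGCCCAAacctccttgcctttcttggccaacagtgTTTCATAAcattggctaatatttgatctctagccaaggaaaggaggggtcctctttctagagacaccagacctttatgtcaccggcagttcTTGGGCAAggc
Ltf: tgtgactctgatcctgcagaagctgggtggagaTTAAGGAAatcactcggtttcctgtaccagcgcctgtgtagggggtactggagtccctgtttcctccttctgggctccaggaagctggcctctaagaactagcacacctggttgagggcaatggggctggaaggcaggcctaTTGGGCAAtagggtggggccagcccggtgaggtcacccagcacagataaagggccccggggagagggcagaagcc
The Ngp window held 3 matches, the last of which began 11 bases before the start, and the Ltf window held 2. Such a match was present in 36.8% of all 32851 windows, and in none of the 4 primary granule windows. S100a8, S100a9 and 1 of the 2 Gfi1 windows held it too, so 5 of the 11 windows of the 10 genes did. In Ltf the first match overlaps AAATCA, the core letters of GFI1 sites, which were found in no other window of the 10 genes and in 12.4% of all windows. The Camp window held none of the 5 motifs searched.

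Ngp encodes neutrophilic granule protein, a cathelin-like protein (mm9 chr9:110322254-110325514, + strand). Control litters A to E had 445, 565, 490, 500 and 527 CPM, and MNR litters A to E had 571, 786, 526, 599 and 560 CPM. MNR litter B was the highest, and MNR litters C and E lay within the control range. The means were 505 ± 44.5 and 608 ± 103 CPM (SD, n = 5), a log2 fold change of 0.27 (SE 0.108, adjusted p = 0.204 in edgeR).

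Camp encodes the cathelicidin antimicrobial peptide (mm9 chr9:109749889-109751970, - strand). It had 92.9, 105.5, 97.8, 103.6 and 98.4 CPM in control litters A to E and 101, 160, 113, 124 and 114 CPM in MNR litters A to E. MNR litter A lay within the control range and the other 4 above it. The means were 99.7 ± 5.01 and 122 ± 22.3 CPM (SD, n = 5), a log2 fold change of 0.30 (SE 0.105, adjusted p = 0.152 in edgeR). Ltf encodes lactoferrin, which binds iron (mm9 chr9:110921796-110945270, + strand). Its control litters had 329, 413, 337, 365 and 377 CPM and its MNR litters 342, 516, 357, 394 and 386 CPM. Only MNR litter B lay above all control litters. Ltf had the smallest log2 fold change of the 10, 0.13 (SE 0.11, adjusted p = 0.547 in edgeR), and it was 0.022 without MNR litter B.

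S100a8 and S100a9 encode the 2 chains of calprotectin, which binds zinc and manganese as well as calcium (mm9 chr3:90472993-90473956, + strand, and chr3:90496554-90499643, - strand). S100a8 had 399, 444, 374, 404 and 415 CPM in control litters A to E and 430, 620, 412, 494 and 475 CPM in MNR litters A to E. S100a9 had 590, 646, 589, 562 and 600 CPM in control litters and 646, 876, 585, 657 and 645 CPM in MNR litters. The groups overlapped for both genes, with MNR litters A and C inside the control range each time. For S100a9, MNR litter E was inside it too, and litters A and E were only just below control litter B. The log2 fold changes were 0.26 (SE 0.104) for S100a8 and 0.19 (SE 0.100) for S100a9, and neither passed, at an adjusted p of 0.205 and 0.317 in edgeR.

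**Figure D2:**
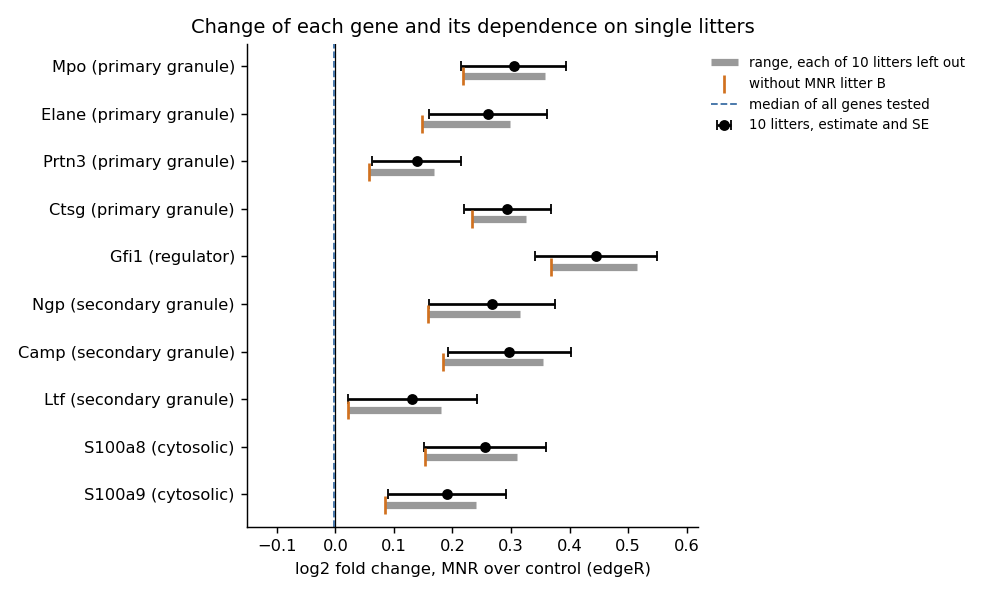
Log2 fold change of MNR over control for each of the 10 genes (black points, bars of 1 SE, edgeR, 5 litters per group), with the range over leaving out each of the 10 litters (grey), the value without MNR litter B (orange) and the median of all genes tested (dashed). All 10 lie above 0, from 0.13 for Ltf to 0.44 for Gfi1, and the value without MNR litter B is the low end of each range.

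Per kilobase of exon, which allows genes to be set side by side, the order of the mean levels in control litters was S100a9 at 1144 CPM per kb, S100a8 at 1039, Ngp at 415, Camp at 166, Ltf at 133, Mpo at 80.6, Elane at 63.5, Prtn3 at 36.6, Ctsg at 27.1 and Gfi1 at 1.87. In MNR litters the order was the same, from 1306 CPM per kb for S100a9 to 2.54 for Gfi1. The genes of the later stages thus stood above those of the primary granule in RNA level in both groups. Each transcript counted for S100a9 and Camp had a near fixed share of its gene: the 2 S100a9 transcripts held 50.2% and 49.8% and the 2 Camp transcripts 43.0% and 57.0%. Over the 20 fetuses these shares varied no more than binomial sampling gives (chi-square over degrees of freedom of 0.872 and 0.996), so the isoforms gave no separate information.

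The balance of primary against secondary granule genes was compared within each litter, as the mean log2 CPM of Mpo, Elane, Prtn3 and Ctsg minus that of Ngp, Camp and Ltf. The primary granule mean was 6.18 ± 0.062 (log2 CPM, SD, n = 5) in control and 6.42 ± 0.174 in MNR litters, with all 5 MNR litters, at 6.31 to 6.73, above the control litters, at 6.07 to 6.22. For the secondary granule genes the means were 8.04 ± 0.107 and 8.26 ± 0.230, and 3 of 5 MNR litters lay above all control litters. Both classes stood higher in MNR by nearly the same amount, 0.24 and 0.22, and for S100a8 and S100a9 the difference of the means was 0.21. Without MNR litter B the median log2 fold change fell from 0.28 to 0.18 for the primary and from 0.27 to 0.16 for the secondary granule genes. How often means of other genes separate the groups was not computed.

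The difference between the classes was -1.83, -1.98, -1.76, -1.86 and -1.86 in control litters A to E and -1.68, -1.92, -1.78, -1.96 and -1.84 in MNR litters A to E. The groups covered almost the same range, and 1 MNR litter, A, lay above all control litters. The group means, -1.86 ± 0.078 and -1.84 ± 0.111 (SD, n = 5), differed by 0.022, which is less than the SD between the litters of either group. The sign of so small a difference was not stable. It was 0.19 with fetus 1 of each litter alone, -0.15 with fetus 2 alone, and between -0.017 and 0.053 with each litter left out in turn.

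**Figure D3:**
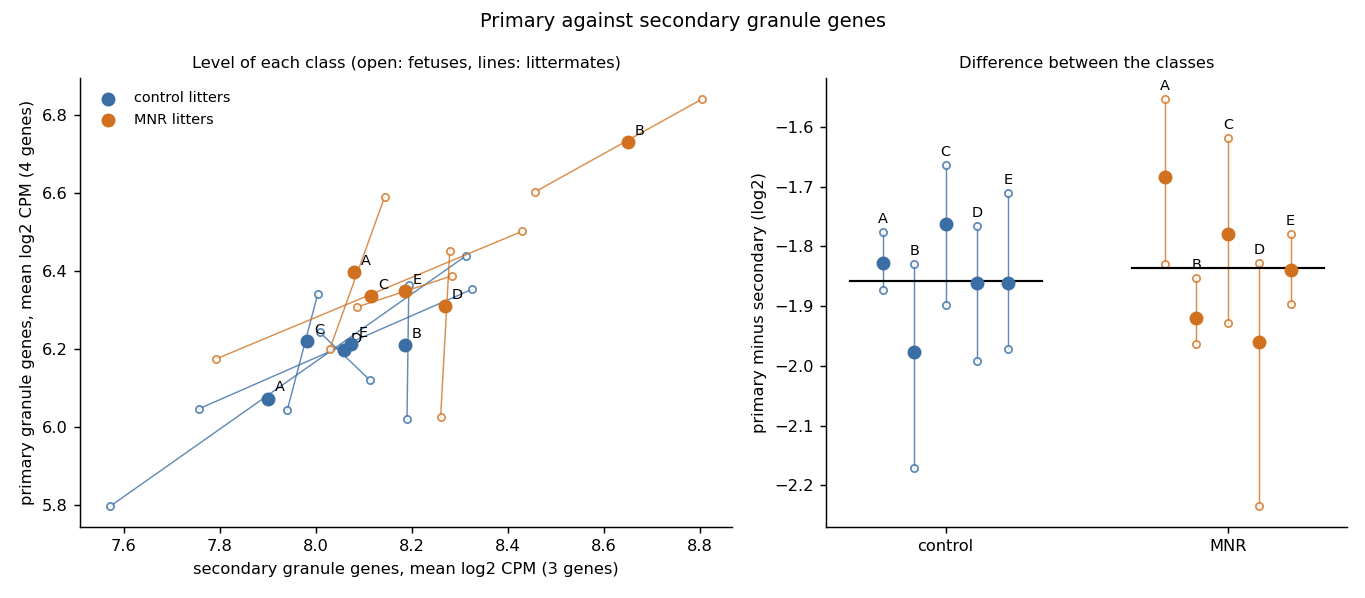
Left, mean log2 CPM of the primary granule genes against that of the secondary granule genes; right, their difference by group, with black bars for the group means. Filled points are litters and open points their 2 fetuses joined by a line; MNR litter B stands apart at 6.73 and 8.65, and the differences of the litters run from -1.98 to -1.76 in control and from -1.96 to -1.68 in MNR.

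MNR litter B was the highest litter for all 10 genes, and the spread between MNR litters was larger than that between control litters for each of the 10. The coefficient of variation was 3.09 to 9.26% between control litters and 10.1 to 18.2% between MNR litters. Without MNR litter B the log2 fold changes were all still positive but smaller: 0.22 for Mpo, 0.15 for Elane, 0.057 for Prtn3, 0.23 for Ctsg, 0.37 for Gfi1, 0.16 for Ngp, 0.18 for Camp, 0.022 for Ltf, 0.15 for S100a8 and 0.084 for S100a9. Mpo, Ctsg and Gfi1 then had the 3 largest values.

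These 3 genes were also the ones whose call depended on the method. With DESeq2 on the same litter sums, where 4.23% of genes passed with a higher level in MNR, Mpo (adjusted p = 0.0248), Ctsg (adjusted p = 0.0148) and Gfi1 (adjusted p = 0.00578) passed and the other 7 did not. The same 3 passed in edgeR when littermates were entered as separate libraries, where 7.6% of genes passed with a higher level in MNR. That fit treats littermates as independent, so its p-values do not have the litter as the replicate. In edgeR without MNR litter D, Mpo (adjusted p = 0.0494) and Gfi1 (adjusted p = 0.0191) passed, and 1.93% of genes passed with a higher level. Without control litter B, Ctsg did (adjusted p = 0.0468), and 2.39% of genes passed with a higher level. These calls thus came in settings where more genes passed over the whole table than the 0.415% above. None of the 10 passed when any other litter was left out.

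Among single fetuses, on the same CPM scale, the groups overlapped for every gene. Mpo had a lowest, median and highest value of 213, 276 and 329 CPM in the 10 control fetuses and of 257, 340 and 449 CPM in the 10 MNR fetuses. Gfi1 stood at 4.13, 6.33 and 7.30 CPM against 6.54, 8.19 and 10.4 CPM, so its groups shared the range from 6.54 to 7.30 CPM. Control fetuses A 1, B 2, C 2, D 1 and E 1 and MNR fetuses A 2, D 1 and D 2 lay in that range. Ltf, with 278, 366 and 445 CPM against 284, 396 and 577 CPM, overlapped over most of its range. Control fetus A 2 was the lowest control fetus for 9 of the 10 genes, and MNR fetus B 2 the highest MNR fetus for 9 of the 10.

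**Figure D4:**
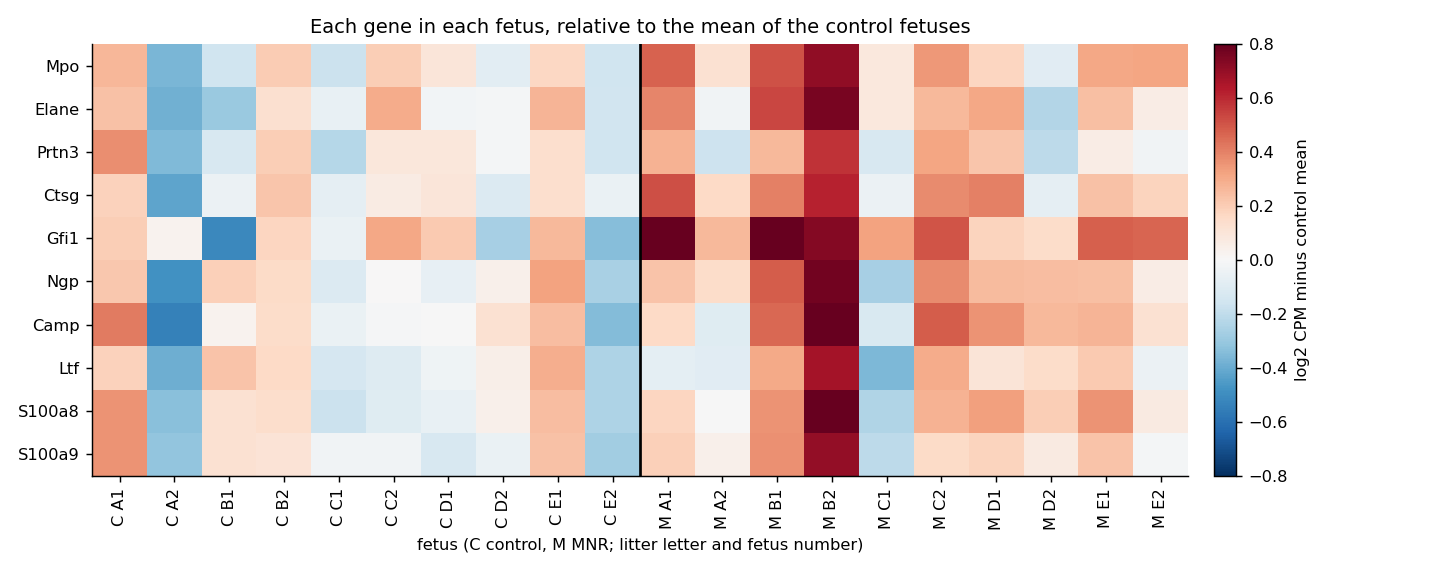
Level of each of the 10 genes in each of the 20 fetuses, as log2 CPM minus the mean of the control fetuses for that gene (red above, blue below; the colour scale ends at 0.8 in either direction). Littermates are neighbouring columns; control fetus A 2 is the lowest control fetus for 9 genes and MNR fetus B 2 the highest MNR fetus for 9 genes.

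Littermates could differ by as much as the diet groups. The median difference between the 2 fetuses of a litter ranged from 0.15 (Ngp) to 0.39 (Elane) on the log2 scale, and it exceeded the fold change between the groups for 4 of the 10 genes. Control litter A held the widest gap for 8 genes, up to 0.96 for Camp. Its fetuses had 14925778 and 25922970 transcript counts in all, and the part of depth in that gap was not tested.

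The later genes depended on which littermate was taken. With fetus 1 of each litter alone, the median log2 fold change of the secondary granule genes was 0.088 and that of Ltf was -0.062, while with fetus 2 alone Ngp stood at 0.43, Camp at 0.46, Ltf at 0.32, S100a8 at 0.39 and S100a9 at 0.32. The primary granule median was 0.26 with either fetus, and Gfi1 stood at 0.49 and 0.43. The fetus number is only a name within a litter, and none of the 10 genes passed in edgeR with either fetus alone, although with fetus 2 alone 1.74% of all genes tested passed with a higher level in MNR.

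The 10 genes varied together from litter to litter within the groups. With the group mean of every gene subtracted, Pearson's r over the 10 litters had a median of 0.79 over the 45 pairs of genes, a description of litters that share library and depth between genes. It was 0.83 to 0.95 among Ngp, Camp, Ltf, S100a8 and S100a9, with Ltf and S100a8 at 0.95, and 0.77 to 0.86 among the primary granule genes, with Mpo and Elane at 0.86. Gfi1 was the least alike, at 0.41 to 0.80 with the primary granule genes and 0.21 to 0.49 with the later 5. Over the 9 litters without MNR litter B the median fell to 0.43. Pearson's r was then 0.43 to 0.87 among the later 5 genes and -0.55 to -0.14 between Gfi1 and these genes. The MNR mean subtracted from each gene still included litter B, so these values are not free of that litter.

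Outside the 10, the genes whose centred levels were most like the primary granule mean over the 10 litters were Arhgap10 (r = 0.95), Lta4h (0.94), Scn8a (0.92), Basp1 (0.91) and Ccl27a (0.90). Most like the secondary granule mean were Lyz2 (r = 0.95), Zfr2 (0.94), Lyz1 (0.93), Stfa3 (0.91) and Lcn2 (0.91). Of these, Lyz2 belongs to the list of primary granule and promyelocyte genes described below, and Lcn2 to that of secondary granules and myelocytes. All these r values include MNR litter B and were not computed without it, so how far they rest on that litter is not known. Lyz1 and Lyz2, the near-identical lysozyme genes whose reads could be split between them, Lcn2, which encodes the siderophore-binding lipocalin of secondary granules, and Lta4h, the enzyme that makes leukotriene B4, are known in neutrophils. Likeness in this sense did not include the diet: the log2 fold changes were 0.24 for Arhgap10, 0.14 for Lyz2 and 0.25 for Lcn2, but -0.12 for Basp1 and -0.12 for Zfr2, and none of the 10 likest genes passed in edgeR, at adjusted p-values from 0.105 to 0.981.

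Other genes of the granulocyte line had, for the most part, fold changes of the same sign. Of 9 tested genes of primary granules and promyelocytes, 8 were higher on average in MNR litters, 0 passed, and the median log2 fold change was 0.28. Srgn, the proteoglycan that packs granule proteins, stood at 0.49 (32.0 ± 4.35 to 44.9 ± 5.76 CPM, SD, n = 5, adjusted p = 0.0576 in edgeR), Serpinb1a, an inhibitor of the granule proteases, at 0.35 (adjusted p = 0.0987) and Ms4a3 at 0.27 (adjusted p = 0.163). Srgn did pass in 6 of 21 alternative settings, DESeq2 among them (adjusted p = 0.0017), with log2 fold changes of 0.44 to 0.57 over all 21. Ctsc, whose product activates the granule proteases, was the exception at -0.15 (adjusted p = 0.223).

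Of 12 tested genes of secondary granules and myelocytes, 11 were positive, with a median of 0.35, and 0 passed. Abca13 stood at 0.43 (8.28 ± 0.534 to 11.1 ± 2.61 CPM, SD, n = 5, adjusted p = 0.114 in edgeR), Cebpe, the C/EBP factor of this stage, at 0.42 (11.3 ± 1.34 to 15.1 ± 3.20 CPM, adjusted p = 0.121), and Wfdc21, listed in the files as 1100001G20Rik, at 0.31 (adjusted p = 0.122). For Abca13 and Wfdc21 all MNR litters stood above the control litters, which also held for 2.28% of all genes tested. Without MNR litter B the log2 fold changes of Abca13 and Wfdc21 were 0.27 and 0.20. Of 14 tested genes of tertiary granules and mature neutrophils, 13 were positive, with a median of 0.22, and again 0 passed. Il1b, the interleukin 1 beta gene, stood at 0.82 from a very low level (0.726 ± 0.119 to 1.27 ± 0.436 CPM, SD, n = 5, adjusted p = 0.0967 in edgeR) and Mmp9 at 0.27 (adjusted p = 0.156). All 6 genes of the NADPH oxidase, which supplies superoxide to the myeloperoxidase reaction, were positive, with a median of 0.24 and 0 passing; Ncf1 stood at 0.31 (adjusted p = 0.105 in edgeR), Ncf4 at 0.28 (0.119) and Cybb at 0.20 (0.242), or 0.11 without MNR litter B. These lists were chosen with earlier results of the same litters known, and MNR litter B had the highest summed level in each of the 4.

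Among 11 transcription factors of granulopoiesis, 1 rose. Cebpb, the C/EBP factor of stress granulopoiesis that hepatocytes also use, had a mean of 26.4 ± 2.29 CPM in control and 37.2 ± 3.83 CPM in MNR litters (SD, n = 5). All MNR litters stood above the control litters, as they did for 2.28% of all genes tested. The log2 fold change of Cebpb was 0.49 (SE 0.081, adjusted p = 0.0286 in edgeR). The call was lost in 8 of 21 alternative settings, at an adjusted p up to 0.313: with fetus 1 alone and without control litter A, C, D or E or MNR litter A, B or E. In those 8 settings 0 to 2 genes passed over the whole table, and the log2 fold change of Cebpb was 0.45 to 0.55 over all 21. Cebpd stood at 0.69 (adjusted p = 0.0685 in edgeR), passing in 6 of 21 settings, DESeq2 among them (adjusted p = 0.00374), and Runx1 at 0.18 (adjusted p = 0.250). The list as a whole was mixed, with 8 of 11 positive and a median of 0.13.

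Of 10 tested cytokine and receptor genes, 7 were positive and 0 passed, with a median of 0.13. Kit, the stem cell factor receptor, stood at 0.45 (33.4 ± 2.74 to 45.8 ± 6.60 CPM, SD, n = 5, adjusted p = 0.0569 in edgeR), Il6ra, the interleukin 6 receptor, at 0.57 (42.0 ± 5.34 to 62.3 ± 11.6 CPM, adjusted p = 0.0674) and Cxcr4, which holds precursors in blood-forming tissue, at 0.28 (adjusted p = 0.114). Kit passed in 7 of 21 alternative settings and Il6ra in 6, in DESeq2 at adjusted p-values of 0.00189 and 0.00345.

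Markers of other cell types differed in direction from list to list, and some of these lists were as uniform in sign as the granulocyte lists. Their part in the results on the 10 genes was not tested. Monocyte and macrophage markers were split, with 9 of 15 positive, a median of 0.074 and summed levels of 472.3 to 595.6 CPM in control and 523.7 to 622.7 CPM in MNR litters. MNR litter B had the highest summed level of this list too. Within that list Cx3cr1 stood at -0.53 (adjusted p = 0.0864 in edgeR), Cd68 at 0.31 (0.120) and Timd4 at -0.22 (0.165). All 8 megakaryocyte markers were positive, with a median of 0.25, and summed to 306.6 to 400.9 CPM in control and 352.6 to 410.2 CPM in MNR litters; Gp9 stood at 0.29 (adjusted p = 0.0731 in edgeR) and Itga2b at 0.25 (0.130). A positive shift of this size was therefore also seen in a blood lineage without these granules.

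B cell precursor markers lay on the other side, with 8 of 9 negative, a median of -0.38, and summed levels of 43.94 to 83.99 CPM in control and 41.52 to 57.22 CPM in MNR litters. Ebf1 stood at -0.27 (adjusted p = 0.137 in edgeR), Cd79a at -0.55 (0.161) and Igll1 at -0.52 (0.223). Erythroid markers had 9 of 11 negative, with a median of -0.083; Hemgn stood at -0.25 (adjusted p = 0.368), Epb4.2 at -0.22 (0.407) and Klf1 at -0.18 (0.447). Of 8 tested eosinophil, basophil and mast cell markers, 6 were positive, with a median of 0.16 and summed levels of 56.02 to 91.69 CPM in control and 68.30 to 93.21 CPM in MNR litters; Siglec5 stood at 0.27, Prg2 at 0.18 and Cpa3 at 0.20, at adjusted p-values of 0.428 to 0.671 in edgeR. Hepatocyte markers were near balance, with 4 of 10 positive and a median of -0.025; Ttr stood at -0.23 (adjusted p = 0.142 in edgeR), Apoa1 at 0.20 (0.256) and Afp at -0.24 (0.361). No gene of these lists passed, and no list gene found in the files was at 0 in all litters.

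Pancreatic acinar markers, which mark the exocrine pancreas, summed to 7.511 to 193.6 CPM in control and 14.36 to 99.63 CPM in MNR litters, with the highest MNR value in litter B. Amy2a5 stood at 0.84, Cela2a at -0.56 and Ctrb1 at -0.60 (adjusted p-values of 0.317, 0.862 and 0.873 in edgeR). The 3 fetuses above 100 CPM for these markers were control B 1, MNR B 1 and MNR E 1. Without them the medians were 0.26 for the primary and 0.29 for the secondary granule genes, and 0 of the 10 genes passed. MNR litter B then rested on fetus B 2 alone, the highest MNR fetus for 9 of the 10 genes.

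**Figure D5:**
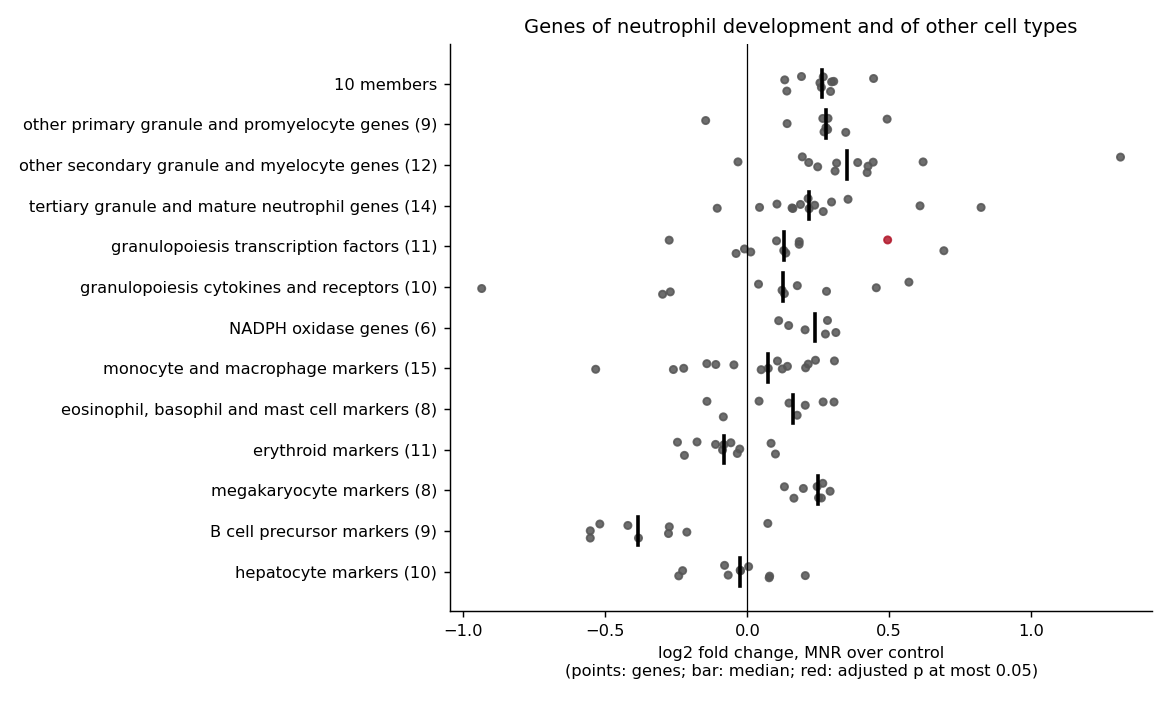
Log2 fold change of MNR over control for each tested gene of 12 marker lists and the 10 granule genes (points), with the list medians (bars) and genes past the threshold in red. The 4 granulocyte lists have medians of 0.22 to 0.35, the B cell precursor list -0.38, and Cebpb is the only gene past the threshold.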

How the data were processed

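For each fetus the authors deposited raw counts of transcripts as whole numbers. The submitters' processing notes name FastQC, Bowtie2, edgeR and DESeq2 and the build mm9. Not given in the sources used here were the counting tool, its version, its strand setting and its treatment of reads with several matches. A deposited gene table holds whole-number scores of unknown meaning, equal to the summed counts for 8.52% to 9.66% of genes, and was not used as expression.

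Counts were summed per gene with the GENCODE M1 annotation of mm9 (0.0788% to 0.154% of counts matched no gene) and over littermates. They were tested after filterByExpr (minimum count 10) and TMM scaling in edgeR 4.0.16 (R 4.3.3), with DESeq2 1.42.0 as an alternative; the procedure was tested on simulated data. Class means are log2 CPM with a prior count of 2. No 2 fetuses of a group agreed within sampling noise (90 pairs, with a chi-square per degree of freedom of 9.12 to 73.0). Nothing in the labels tells of batches.

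Members, lists and tests were chosen with earlier results of these data known. Named genes are the 10, the 3 of smallest p in each list, and the 5 most like each granule class with a mean of at least 1 CPM, passing over predicted or clone-based names; some are not reported here, and Ctsc was named after its value was seen. Alternatives were other scalings, filters, a replicate block, an erythroid covariate, single fetuses and each litter left out. Ahsp and Pnlip could not be matched to a gene.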

Additional observations from a re-analysis of the deposited data

Results flagged for a closer look

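In 5 of 22 groups of 5 litters examined, the outermost litter lay farther from its neighbour than Dixon's 95% critical value of 0.71 allows, as a share of the range; chance marks about 1 in 20 groups. In 4 of them the litter was MNR B: Elane at 91.14 CPM (next highest 65.97), Prtn3 at 85.38 CPM (67.35), Ngp at 785.9 CPM (599) and S100a9 at 876.3 CPM (657). The other was Mpo in control litter A, the lowest at 256.6 CPM against 277.6 CPM in the next litter. The genes share litters, so these are not separate events.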

How the results depend on the processing

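In edgeR, 117 genes passed over the whole table. The number was 178 with upper-quartile scaling (68 of them higher in MNR, against 73 of 117 with TMM), 1163 with DESeq2, 212 with at least 1 CPM in every litter, 2301 with fetuses as separate libraries, 0 with fetus 1 alone, 499 with fetus 2 alone, 200 with the erythroid covariate, and 215 without the 3 fetuses with pancreatic transcripts, a choice made after seeing the data. It ranged from 0 (5 of the 10 litters, each left out: control A, C and E, MNR B and E) to 843 (without control litter B), with 512 without MNR litter D. The fit with fetuses as separate libraries treats littermates as independent and does not keep the litter as the replicate. Of the 10 granule genes, 3 passed with DESeq2, 3 with fetuses as separate libraries, and 0 to 2 with each litter left out. In the main edgeR test on all 10 litters 0 of them passed. There, 7 had an unadjusted p under 0.05 with a higher level in MNR, as did 9.95% of all genes tested. With fetus 1 alone the secondary granule median was 0.0877; the primary minus secondary difference was 0.187 with fetus 1 and -0.153 with fetus 2. With the litter letter as a replicate block, 232 genes and 0 of the 10 passed, and Il6ra (adjusted p = 0.0164 in edgeR), Cebpd (0.0249) and Srgn (0.0477) did. Deviations of same-letter litters from their group means had correlations of 0.0259, 0.184, 0.148, 0.16 and -0.00928 (A to E). Litters of unlike letters were not compared, so these values cannot tell whether the letters are pairs. The letters were not taken as pairs in the main test.

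Signs reversed with fetus 1 alone for Ltf (-0.0617), Lyz2 (-0.0155) and Lyz1 (-0.00479). Cela2a and Ctrb1 reversed to 0.450 and 0.560 with the replicate block, 0.106 and 0.144 with the erythroid covariate and 1.51 and 1.86 without the pancreatic fetuses. Over the litters left out in turn, Cela2a ranged from -1.68 to 3.69, Ctrb1 from -1.59 to 4.19, Scn8a from -0.546 (without MNR litter B) to 0.316, and Ccl27a from -0.351 to 0.0971. Scn8a was -0.00939 with the block and Ccl27a 0.00712 with the erythroid covariate. The cause was not tested. Calls absent with the litters as tested were gained in 6 of 21 settings by Srgn, Cebpd and Il6ra and in 7 by Kit: by all 4 with DESeq2, with separate fetuses and without control litter B or MNR litter D. With fetus 2 alone Kit (0.0444), Il6ra (0.0199) and Cebpd (0.0287) passed; without the count filter Kit and Srgn (0.0493 each); and with at least 1 CPM Kit (0.0496). Other named genes gained a call in at most 3 settings. Of 1338 recomputed values, 1221 kept their direction and side of the threshold or moved by less than the spread. Gfi1, at 70 to 205 counts per fetus, has the fewest counts behind it of the 10.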

Other observations

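Fcnb, which encodes ficolin B and was listed with the secondary granule and myelocyte genes, was named after its values were seen. It had the largest log2 fold change of the granulocyte lists, 1.31 (SE 0.65), but its litters varied widely, with 13.4 ± 14.5 CPM in the control and 33.1 ± 17.0 CPM in the MNR litters (SD, n = 5, adjusted p = 0.290 in edgeR). Chi3l3, the chitinase-like gene of myelocytes, stood at 0.39 (107 ± 17.5 to 141 ± 28.8 CPM) and Olfm4 at 0.44 (177 ± 22.6 to 240.2 ± 58.5 CPM), and neither passed (adjusted p = 0.164 and 0.130 in edgeR). Cxcl12, the ligand of Cxcr4, had a lower mean in MNR, at 124 ± 13.9 CPM against 153 ± 17.7 CPM in control (SD, n = 5), a log2 fold change of -0.30 that did not pass (adjusted p = 0.128 in edgeR). Each of these genes was picked for its value and carries no weight as a separate test.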
